A study of Mus musculus with 9 samples.

Results

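The endoplasmic reticulum stress response genes examined here are 10 named genes: Hspa5, Hsp90b1, Calr, Dnajb9, Pdia4, Herpud1, Atf6, Xbp1, Atf4 and Ddit3. They were taken as all non-control probes whose accession belongs to these symbols, which gave 15 of the 41174 probes on the array, and all 10 were among the 27773 genes that passed the filter on dim probes. Their signal was compared in whole hearts of male C57BL/6 mice aged 3 to 4 months, untreated and on a normal diet, with 5 wild-type (WT) and 4 RORasg/sg heart samples. RORasg/sg mice are homozygous for staggerer, an intragenic deletion of Rora that removes the nuclear receptor RORalpha in every cell type from development on, so that a difference in the heart need not start in the heart. Each heart gave 1 single-colour Agilent array. In whole-heart RNA, fewer cells of a type and less RNA per cell cannot be told apart.

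Secreted and membrane proteins fold in the lumen of the endoplasmic reticulum (ER). When unfolded protein accumulates there, the unfolded protein response starts from the ER membrane sensors IRE1, PERK and ATF6: IRE1 splices the Xbp1 mRNA, PERK phosphorylates eIF2alpha and so favours translation of Atf4, and ATF6 is cut to release a transcription factor. Their targets include lumenal chaperones and foldases, the degradation machinery and, under lasting stress, Ddit3, which encodes the pro-apoptotic factor CHOP. In cardiomyocytes the sarcoplasmic reticulum is a specialised part of the same membrane system, and the response is known from pressure overload and ischaemia.

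ATF6 and XBP1 act on chaperone promoters through the ER stress response element (ERSE), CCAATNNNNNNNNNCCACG, and on Herpud1 also through a shorter form, ERSE-II, ATTGGNCCACG. RefSeq promoter windows (assembly GRCm38.p6, 250 bases before to 50 after the annotated start) were found for 9 of the 10 genes, all but Atf6, and both strands were searched. Of the 9 windows, 3 held ERSE (Hspa5, Hsp90b1 and Calr) and 1 held ERSE-II (Herpud1), against 0.119% and 0.0365% of all 32851 windows. The stretches with the matches are shown 5′ to 3′ on the gene's strand because they are the sequence feature that these chaperone genes share. Capitals mark the matches, which lie on the opposite strand in Calr and in the second match of Hsp90b1.
Hspa5 (chr2:34771995-34772073, plus strand): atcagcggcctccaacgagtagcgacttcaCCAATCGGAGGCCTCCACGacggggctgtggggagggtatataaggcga
Hsp90b1 (chr10:86705503-86705686, minus strand): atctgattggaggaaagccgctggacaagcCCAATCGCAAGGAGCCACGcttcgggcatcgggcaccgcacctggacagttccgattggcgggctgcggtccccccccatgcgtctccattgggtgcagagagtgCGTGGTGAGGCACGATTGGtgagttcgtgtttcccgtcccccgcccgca
Calr (chr8:84847045-84847123, minus strand): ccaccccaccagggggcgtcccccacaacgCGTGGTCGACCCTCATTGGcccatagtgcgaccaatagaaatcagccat
Herpud1 (chr8:94386347-94386417, plus strand): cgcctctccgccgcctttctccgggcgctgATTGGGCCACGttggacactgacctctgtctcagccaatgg

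None of the 9 windows held the ATF6 site TGACGTGG (0.676% of all windows), the amino acid response element TGATGNAAT bound by ATF4 (0.965%) or TAGGTCA, the core of the ROR response element (2.61%), in these letters. ERSE and ERSE-II share the letters CCACG, and no member window held both. A match is a description of the sequence and not evidence of binding in these hearts.

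Brightness was uneven. WT 4 and RORasg/sg 2, 3 and 4, whose 75th percentile of signal was 264 to 436, are called the dimmer arrays, and the other 5 (547 to 773) the brighter ones. Set against the brighter WT arrays, RORasg/sg 1 had a median correlation over genes of 0.962, the dimmer RORasg/sg arrays had 0.757 to 0.861 and WT 4 had 0.895. The hearts numbered 1 and 2 of both groups shared slide 1, those numbered 3 and 4 shared slide 2, and WT 5 was alone on slide 3. The signal of Rora itself lay below the WT range in all 4 RORasg/sg hearts on 2 of its 3 probes and overlapped on the third, a dim one, and all 8 cardiomyocyte markers were well above background on every array. All levels below are log2 of a probe's signal minus the log2 of its array's 75th percentile, so 0 is that percentile, and levels of different probes are not comparable. Differences are RORasg/sg minus WT on this log2 scale. The median difference of all genes was 0.41, and differences are set beside it below. That median takes in dim and bright probes alike. Of the genes examined, Xbp1 and Ddit3 had WT means below the 75th percentile (-1.43 and -3.61). The others lay above it, from 1.31 for Pdia4 to 5.63 for Hsp90b1. No genes of like signal level were drawn as a background. Whether the differences depended on a probe's signal level was not tested.

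Across the 10 genes, 9 had a lower and 1 a higher mean in RORasg/sg hearts, where 33.4% of all genes had a lower mean. Their median difference was -1.01. None passed an adjusted p of 0.05 in limma over all genes (0.00360% of genes did), and 2, Hspa5 and Atf4, had an unadjusted p under 0.05 on the lower side, where 6.62% of all genes did. The differences ran from -2.16 for Xbp1, which had 2 hearts at background and came to -0.56 with normexp background correction, to 0.81 for Ddit3. Exact two-sided permutation tests on single members gave p = 0.0159 for Ddit3, the smallest value this design allows, p = 0.0317 for Hspa5 and Hsp90b1, p = 0.0476 for Atf4, and 0.175 to 0.524 for the other 6. The SD was larger among RORasg/sg than among WT hearts in 10 of 10 genes, with a median SD of 1.28 against 0.396, as it was in 23911 of 27773 genes.

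**Figure D1:**
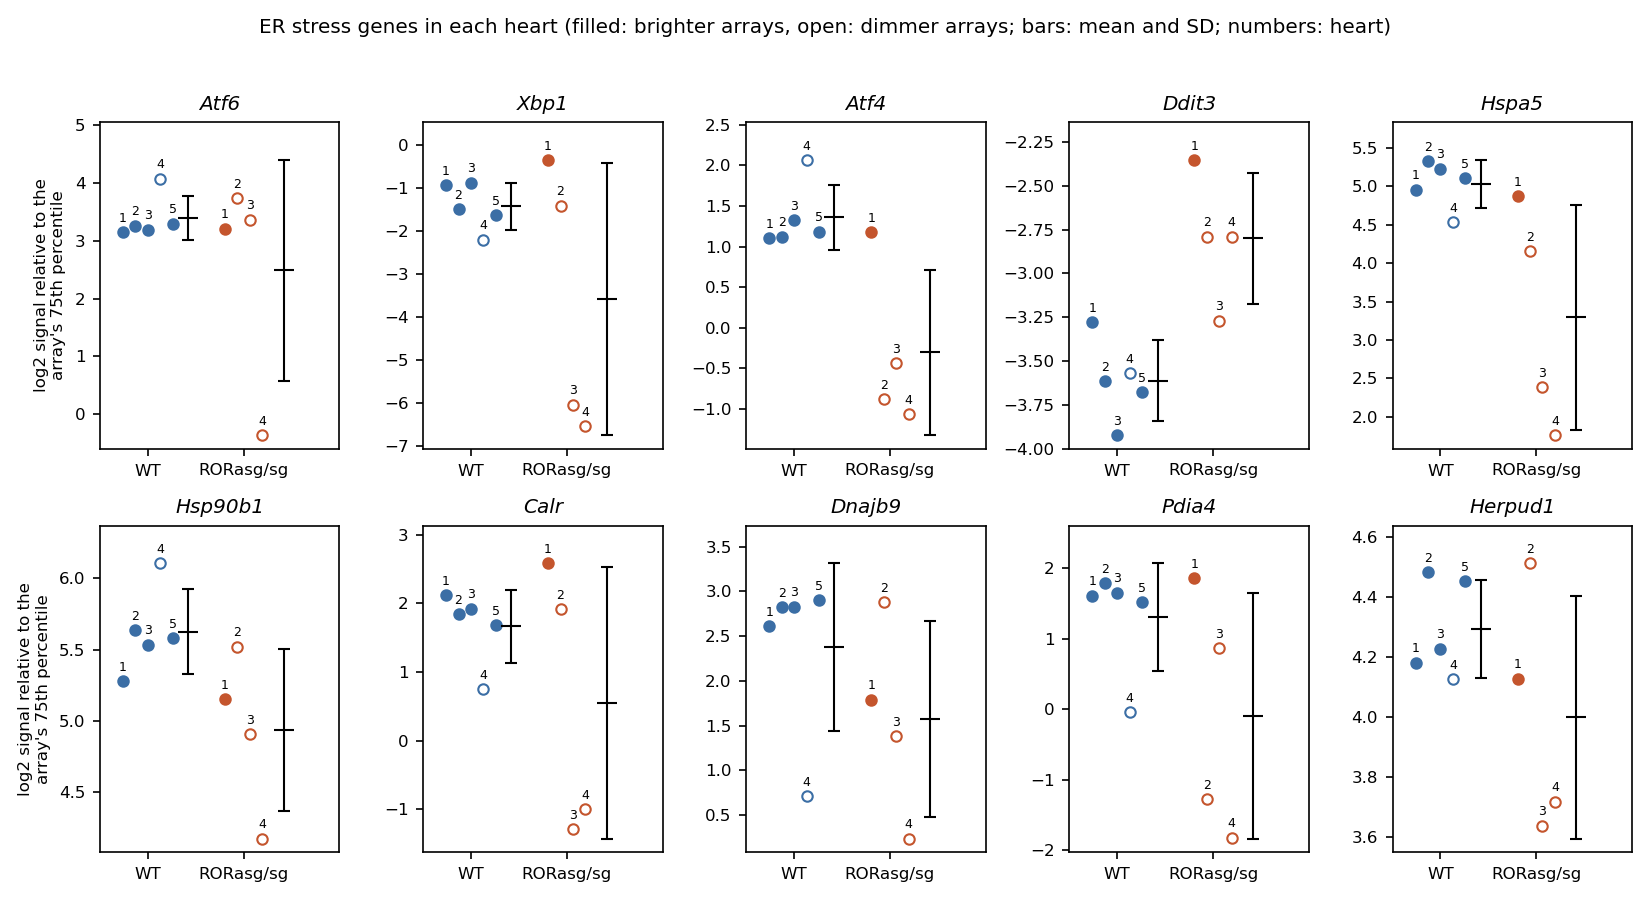
Level of the 10 ER stress genes in each heart, as log2 signal relative to the array's 75th percentile (vertical axis, a separate scale for each gene), for 5 WT (blue) and 4 RORasg/sg hearts (orange); filled points are brighter and open points dimmer arrays, numbers are hearts, and bars give mean and SD. RORasg/sg 1 sits within or above the WT range in 9 of 10 genes, whereas RORasg/sg 4 is the lowest of all hearts in 7.

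The lumenal chaperones are the abundant folding helpers of the ER. Hspa5, which encodes BiP, the ER member of the Hsp70 family that also holds the stress sensors inactive, read, in the order of the heart numbers, 4.95, 5.33, 5.23, 4.53 and 5.11 in WT and 4.87, 4.15, 2.39 and 1.76 in RORasg/sg hearts, an order kept for every gene below. RORasg/sg 2, 3 and 4 lay below every WT heart, and RORasg/sg 1 lay between WT 4 and the brighter WT hearts. The means were 5.03 ± 0.312 (SD, n = 5) and 3.29 ± 1.46 (SD, n = 4), a difference of -1.74 (SE 0.575, 95% interval -2.99 to -0.48), or 3.33-fold less in RORasg/sg. In limma the adjusted p was 0.395. With brightness as a covariate the difference was -0.97. Against the mean of the 4 brighter WT hearts, RORasg/sg 1 to 4 deviated by -0.28, -1.0, -2.77 and -3.39, and WT 4 by -0.62.

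Hsp90b1 encodes GRP94, the ER member of the Hsp90 family. Its brighter probe read 5.28, 5.63, 5.53, 6.10 and 5.58 in WT and 5.15, 5.52, 4.91 and 4.18 in RORasg/sg hearts, so that RORasg/sg 1, 3 and 4 lay below every WT heart and RORasg/sg 2 lay among them. The difference was -0.69 (SE 0.327, limma adjusted p = 0.418; -0.43 without RORasg/sg 4), with means of 5.63 ± 0.300 (SD, n = 5) and 4.94 ± 0.568 (SD, n = 4). The second probe read 4.54, 4.58, 4.49, 4.10 and 4.74 in WT and 4.40, 3.67, 2.77 and 2.51 in RORasg/sg hearts. On that probe RORasg/sg 2, 3 and 4 were the 3 lowest hearts. WT 4 was the highest WT heart on the first probe and the lowest on the second. The second probe differed by -1.15 (SE 0.415) and had an adjusted p of 0.342 in the limma fit over probes.

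Calr encodes calreticulin, a calcium-binding lectin chaperone for glycoproteins. It read 2.12, 1.85, 1.93, 0.75 and 1.69 in WT hearts and 2.58, 1.91, -1.29 and -1.0 in RORasg/sg hearts. RORasg/sg 1 was the highest of all 9 hearts, RORasg/sg 2 lay within the WT range, and RORasg/sg 3 and 4 lay below it. The difference was -1.11 (SE 0.784, 95% interval -2.82 to 0.59, limma adjusted p = 0.438). It was -1.79 without RORasg/sg 1, -0.5 without RORasg/sg 3 and -0.18 with brightness as a covariate. The other Calr probe spread further, from 3.67 in RORasg/sg 1 to -1.72 in RORasg/sg 4, with WT 4 at -0.86 and the other WT hearts between 1.56 and 2.41. On it RORasg/sg 2 (-0.60) lay far below the brighter WT hearts, unlike on the first probe. Its difference was -1.50 (SE 1.07).

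Dnajb9 encodes ERdj4, a DnaJ co-chaperone of BiP that is induced through XBP1. The probe with the highest mean read 2.61, 2.82, 2.83, 0.71 and 2.90 in WT and 1.79, 2.88, 1.38 and 0.24 in RORasg/sg hearts. WT 4 stood far below the other WT hearts, and the groups overlapped. The difference was -0.80 (SE 0.620, limma adjusted p = 0.462), and it was -1.24 without RORasg/sg 2, -0.36 without RORasg/sg 4 and -0.40 with brightness as a covariate. The other Dnajb9 probes gave -1.18 (SE 0.680) and -2.82 (SE 1.23), and the latter probe, which was well above background in only 3 RORasg/sg hearts, read 2.52 in RORasg/sg 2 but -5.29 in RORasg/sg 4. These 3 probes thus differed among themselves by 2.02, more than the 0.266 to 0.467 between the probes of Atf6, Calr and Hsp90b1. Dnajb9 also read lower in RORasg/sg 1 (1.79) than in the 4 brighter WT hearts (2.61 to 2.90).

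**Figure D2:**
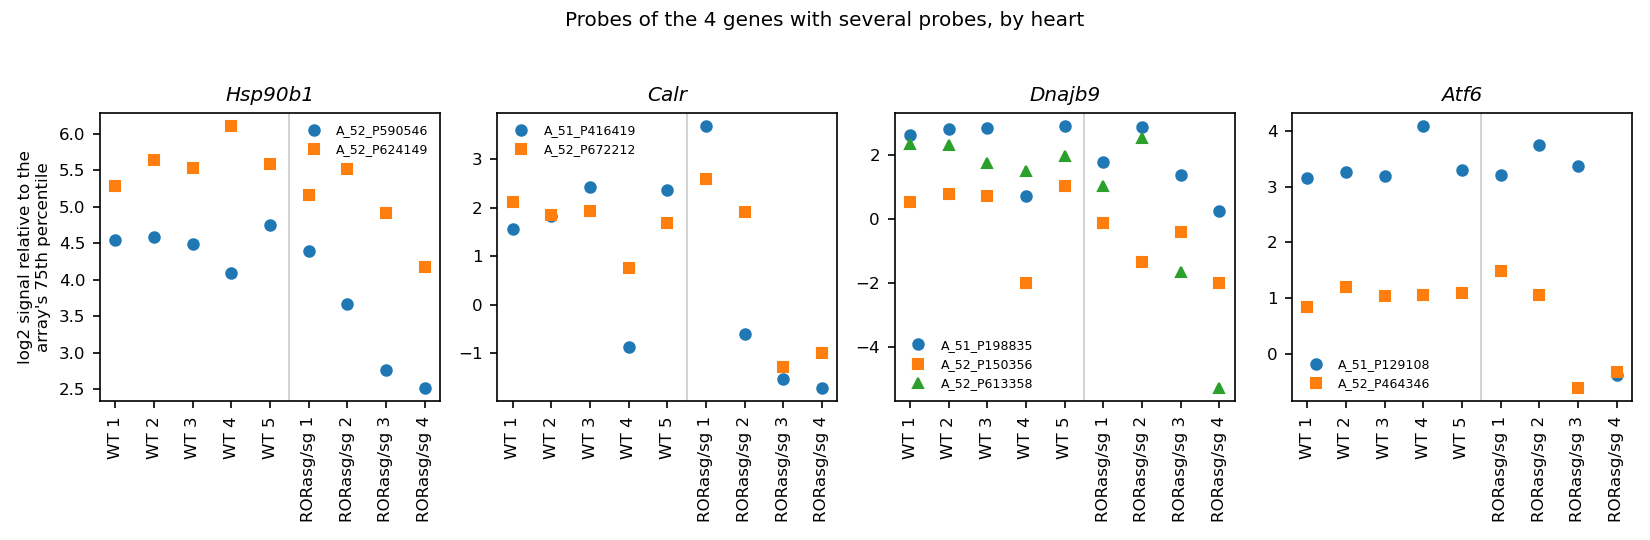
Every probe of the 4 genes measured with several probes, in each heart (horizontal axis), as log2 signal relative to the array's 75th percentile (vertical axis); each colour and symbol is 1 probe. The 2 probes of Hsp90b1 move apart in WT 4 (6.10 and 4.10), and the 3 probes of Dnajb9 spread from 0.24 to -5.29 in RORasg/sg 4.

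Pdia4, the foldase of the set, encodes ERp72, a protein disulphide isomerase that forms and reshuffles disulphide bonds. It read 1.61, 1.79, 1.66, -0.04 and 1.52 in WT hearts and 1.86, -1.28, 0.87 and -1.83 in RORasg/sg hearts. RORasg/sg 1 was the highest of the 9 hearts, and RORasg/sg 2 and 4 were the lowest, below WT 4. The difference was -1.40 (SE 0.752, 95% interval -3.04 to 0.24, limma adjusted p = 0.418), or 2.64-fold less. Without RORasg/sg 4 it was -0.82, and a covariate for brightness left -0.04.

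Herpud1 encodes an ER membrane protein that supports degradation of misfolded proteins. It had the smallest range over the 9 hearts among the members: 4.18, 4.48, 4.23, 4.13 and 4.45 in WT and 4.13, 4.51, 3.64 and 3.72 in RORasg/sg hearts. RORasg/sg 1 lay at the lower edge of the WT range, RORasg/sg 2 just above it, and RORasg/sg 3 and 4 below it. The difference was -0.30 (SE 0.317, 95% interval -0.99 to 0.39, limma adjusted p = 0.569), with -0.47 without RORasg/sg 2 and -0.18 without RORasg/sg 3.

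Among the sensors and transcription factors, Atf4 had the smallest limma p of the 10. Atf4, the factor whose translation PERK favours, read 1.10, 1.12, 1.33, 2.07 and 1.18 in WT hearts and 1.17, -0.88, -0.44 and -1.06 in RORasg/sg hearts. RORasg/sg 2, 3 and 4 lay below every WT heart and RORasg/sg 1 lay among them. Means were 1.36 ± 0.405 (SD, n = 5) and -0.30 ± 1.02 (SD, n = 4), a difference of -1.66 (SE 0.526, 95% interval -2.81 to -0.51), or 3.16-fold less. The limma adjusted p was 0.385, and with brightness as a covariate the difference was -1.08. WT 4, the dimmer WT array, was here the highest of the 9 hearts, whereas the dimmer RORasg/sg arrays were the lowest.

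Atf6, the sensor that becomes a transcription factor on cleavage, read 3.15, 3.26, 3.19, 4.08 and 3.29 in WT and 3.21, 3.74, 3.37 and -0.37 in RORasg/sg hearts. A single heart, RORasg/sg 4, stood apart from the other 8, and without it the difference of -0.91 (SE 0.732, limma adjusted p = 0.473) became 0.04. With brightness as a covariate it was -0.44. The second Atf6 probe read 0.86 to 1.2 in WT and 1.5, 1.06, -0.61 and -0.32 in RORasg/sg hearts 1 to 4. On that probe both RORasg/sg 3 and 4 lay below all WT hearts. Its difference was -0.64 (SE 0.507).

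Xbp1 encodes the transcription factor made after IRE1 splices its mRNA. It read -0.93, -1.50, -0.87, -2.21 and -1.64 in WT hearts and -0.35, -1.42, -6.04 and -6.55 in RORasg/sg hearts. RORasg/sg 1 was the highest heart, RORasg/sg 2 lay within the WT range, and the probe was not well above background in RORasg/sg 3 and 4. The mean difference of -2.16 (SE 1.14, 95% interval -4.63 to 0.31, limma adjusted p = 0.418) rests on the latter 2 hearts, where the signal was not well above background. It was -1.17 without RORasg/sg 4, -0.69 with brightness as a covariate and -0.56 with normexp background correction. Whether the single probe reads the spliced, the unspliced or both forms of Xbp1 is not known from the files, so the activity of IRE1 was not measured.

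Ddit3, whose product CHOP accumulates under lasting ER stress, was the gene with the higher mean. It read -3.28, -3.61, -3.92, -3.57 and -3.68 in WT hearts and -2.35, -2.79, -3.27 and -2.79 in RORasg/sg hearts. The groups did not overlap, as in 1.12% of all genes with the RORasg/sg side higher, but RORasg/sg 3 (-3.269) and WT 1 (-3.278) all but touched. The mean was -3.61 ± 0.231 in WT (SD, n = 5) and -2.80 ± 0.374 in RORasg/sg (SD, n = 4), a difference of 0.81 (SE 0.384, 95% interval -0.02 to 1.65), or 1.75-fold more. The limma adjusted p was 0.418, and the exact permutation p given above is that of any gene whose groups do not overlap. No member separated fully on the lower side, where 1.71% of all genes did.

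The probe of Ddit3 was dim, though well above background on all 9 arrays, with an unscaled processed signal of 70.5, 52.5, 41.6, 36.7 and 42.8 in WT hearts and 151, 42.2, 40.5 and 38.2 in RORasg/sg hearts. In these unscaled values RORasg/sg 1 stood above all other hearts and RORasg/sg 2, 3 and 4 lay within the WT range, which gave a difference of 0.24 (limma adjusted p = 0.852) where the median of all genes was -0.17. The scaling moves all genes of an array alike, so the overlap of the groups changed with it while the distance of Ddit3 from the median of all genes hardly did. The sign was positive under every one of the 25 alternatives (0.24 to 1.27), but the median of all genes moved too. Ddit3 lay below that median without RORasg/sg 1 (0.66 beside 0.68) and with array quality weights (0.57 beside 0.69). Under the others it lay above, narrowly so within slide 2 (0.72 beside 0.67). From the mean of the 4 brighter WT hearts, Ddit3 deviated by 1.27, 0.83, 0.35 and 0.83 in RORasg/sg 1 to 4. The median of all genes deviated there by -0.34, 0.60, 0.71 and 0.81.

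The low values came from some RORasg/sg hearts and not from others. Measured from the mean of the 4 brighter WT hearts, the median deviation of the 10 genes was -0.01 in RORasg/sg 1, 0.02 in RORasg/sg 2, -1.09 in RORasg/sg 3 and -2.72 in RORasg/sg 4, and -0.42 in WT 4. The median deviation of all genes was above 0 on the dimmer arrays, at 0.60, 0.71 and 0.81 in RORasg/sg 2, 3 and 4 and 0.28 in WT 4, and was -0.34 in RORasg/sg 1. Below the reference lay 6, 4, 8 and 9 of the 10 genes in RORasg/sg 1 to 4, where 70.9%, 33.6%, 33.3% and 33.8% of all genes did, and 6 of 10 in WT 4, where 39.4% did. The 3 dimmer RORasg/sg hearts lay together below every WT heart in 2 of the 10 genes, Hspa5 and Atf4 (7.72% of all genes), and together above every WT heart in 1, Ddit3 (27.2% of all genes).

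**Figure D3:**
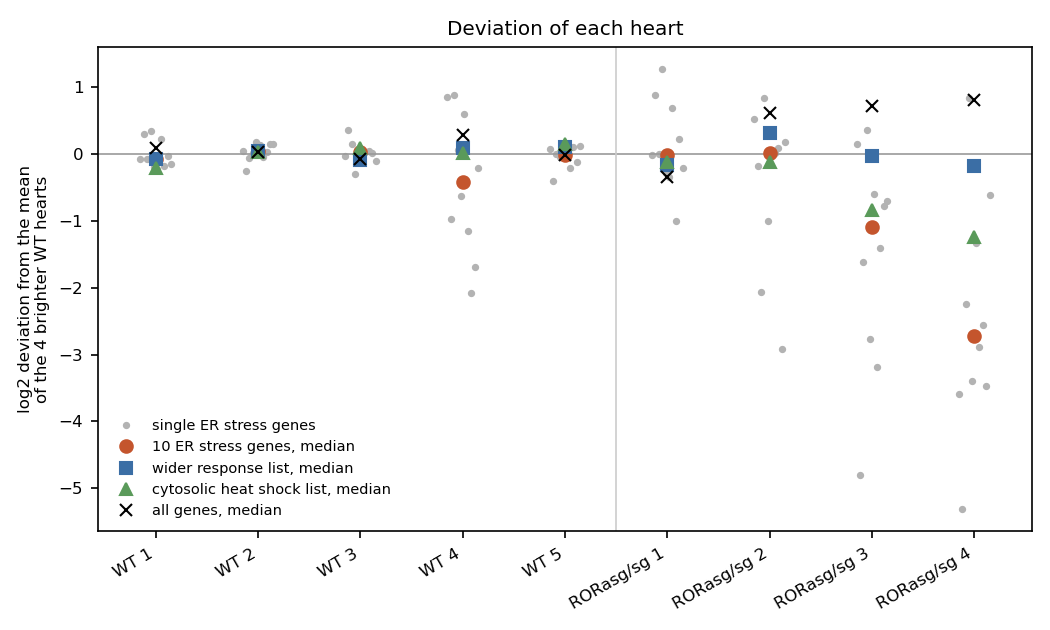
Deviation of each heart from the mean of the 4 brighter WT hearts in log2 units (vertical axis), by heart (horizontal axis): grey points are the 10 ER stress genes, and symbols are medians over those genes, a wider list of the response, cytosolic heat shock genes and all genes. The median of the 10 genes is -0.01 in RORasg/sg 1 and -2.72 in RORasg/sg 4, where the median of all genes is 0.81.

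Without RORasg/sg 1, members passed the threshold. Limma then called 10389 of 27773 genes (37.4%), 8.89% of all genes on the lower side, and 4 of the 10 members on that side: Atf4 (-2.15, adjusted p = 0.00659), Hspa5 (-2.26, adjusted p = 0.0140), Xbp1 (-3.24, adjusted p = 0.0366) and Pdia4 (-2.05, adjusted p = 0.0396). The value of Xbp1 rests on a probe that was not well above background in 2 of the 3 remaining RORasg/sg hearts. The remaining RORasg/sg hearts are then all dimmer arrays, against 4 brighter and 1 dimmer WT array, so brightness and genotype largely coincide in that fit. Calls on the lower side were not particular to the 10 genes. Of 22 cytosolic heat shock genes, described below, the same fit called 9 lower and 3 higher. It called 4 lower and 1 higher of 8 cardiomyocyte markers, and likewise of 6 endothelial markers. Of 67 further genes of the response it called 6 lower and 13 higher. Weighting arrays by their estimated quality called 7 members, all lower, beside 16.0% of all genes on that side.

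In the brighter arrays, with 4 WT hearts and RORasg/sg 1 alone, the picture differed. The median difference of the members was -0.01, beside -0.34 for all genes. There 1 member was called, Dnajb9 (-0.999, SE 0.201, limma adjusted p = 0.0352), where 3.00% of all genes were called lower, and this assumes that the lone RORasg/sg heart varies like the WT hearts. Calr (0.69), Xbp1 (0.89) and Pdia4 (0.22) had the opposite sign to that in all 9 arrays, and Hspa5 and Atf4 were at -0.28 (95% interval -0.69 to 0.13) and -0.01 (95% interval -0.51 to 0.49). Ddit3 was at 1.27 (95% interval 0.35 to 2.19, adjusted p = 0.108).

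Among the dimmer arrays, with WT 4 against RORasg/sg 2, 3 and 4, no member was called, and the members' median was -1.05, beside 0.50 for all genes. The spread comes there from the RORasg/sg hearts alone, and WT 4 is assumed to vary like them, although it stood apart from the other WT hearts for 6 member probes. Atf4 differed by -2.86 (95% interval -4.83 to -0.89, limma adjusted p = 0.684) and Hspa5 by -1.76 (95% interval -4.70 to 1.18), whereas Dnajb9 turned to 0.79 against the low WT 4. Within slide 1 the median of the members was -0.07, beside 0.06 for all genes, with Hspa5 at -0.63 and Atf4 at -0.96. Within slide 2 it was -1.71, beside 0.67 for all genes, with Hspa5 at -2.80 and Atf4 at -2.45. With brightness as a covariate the median was -0.42, beside 0.01 for all genes. In that fit Hsp90b1 (-0.65) and Herpud1 (-0.26) hardly moved, and Ddit3 rose to 0.96. The part of brightness in these differences was not tested beyond these values.

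**Figure D4:**
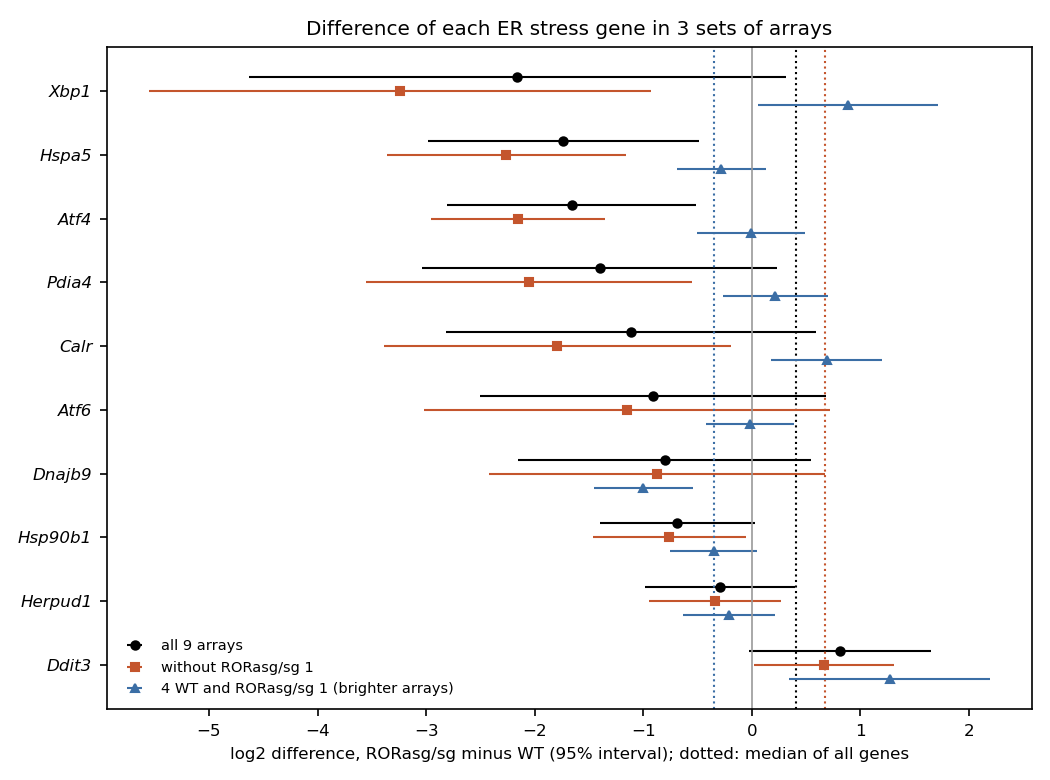
Difference of each ER stress gene, RORasg/sg minus WT in log2 units with its 95% interval (horizontal axis), in all 9 arrays (black), without RORasg/sg 1 (orange) and in the 5 brighter arrays, where RORasg/sg 1 is the lone RORasg/sg heart (blue); dotted lines are the medians of all genes. Hspa5 is at -1.74, -2.26 and -0.28 and Xbp1 at -2.16, -3.24 and 0.89.

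A wider list of 68 genes of the unfolded protein response, outside the 10, held genes with differences in both directions. Of its 67 measured genes, 36 had a higher and 31 a lower mean in RORasg/sg, where 33.4% of all genes had a lower mean. The median of the list was 0.07, beside 0.41 for all genes. In limma 0 passed over all genes. At an unadjusted p under 0.05, 2 were higher and 2 lower, where 1371 and 1839 of all 27773 genes were. Its median deviation in RORasg/sg 4 was -0.18, against -2.72 for the 10 genes and 0.81 for all genes. In RORasg/sg 3 it was -0.03, against -1.09 and 0.71.

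By role, the further chaperones and co-chaperones had 5 of 11 with a higher and 6 with a lower mean, and a median of -0.08. Sdf2l1, a BiP-associated factor, read 3.44, 2.48, 2.56, 2.67 and 2.10 in WT and 2.61, -1.47, -0.79 and -2.13 in RORasg/sg hearts, a difference of -3.09 (SE 0.816, limma adjusted p = 0.373). As with Hspa5 and Atf4, RORasg/sg 1 lay among the WT hearts and the other 3 lay below them. Dnajc3, the co-chaperone p58IPK, differed by -1.81 (SE 0.557, limma adjusted p = 0.379), with no overlap of the groups, as in 1.71% of all genes on the lower side. Sil1, the exchange factor of BiP, differed by -0.99.

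The foldases and oxidases had a lower mean in 6 of 6 measured genes (median -0.58), among them the oxidases Ero1b (-1.11) and Ero1a (-1.44) and the disulphide isomerase Pdia6 (-0.65), with 0 at an unadjusted p under 0.05. In the brighter arrays 4 of these 6 were higher. The sensors and transducers had 6 higher and 3 lower of 9 (median 0.33), with Atf6b, the ATF6 paralogue, at 1.21 (SE 0.511, limma adjusted p = 0.418), Creb3l2 at -1.17 and Eif2s1, the subunit that PERK phosphorylates, at -1.37. Degradation and quality control genes had 8 higher and 7 lower of 15 (median 0.33), with Ube2g2 at -0.97 and Edem3 at 0.88.

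The PERK and ATF4 branch had 14 higher and 6 lower of 20 (median 0.40), close to all genes. Mthfd2, a mitochondrial folate enzyme and ATF4 target, read -2.52, -2.58, -3.19, -2.74 and -2.80 in WT and -2.09, -1.59, -1.82 and -2.04 in RORasg/sg hearts. All 4 RORasg/sg hearts lay above all WT hearts, RORasg/sg 1 included, as in 1.12% of all genes. The difference was 0.88 (SE 0.371, limma adjusted p = 0.418). Vldlr and Slc3a2 differed by -0.83 and -1.24. Genes of cell death and calcium leak had 3 higher and 3 lower of 6 (median 0.11), with Bcl2l11 at 0.89, Wfs1 at -0.64 and Tnfrsf10b at 0.33.

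The cytosolic heat shock genes are the nearest counterpart outside the ER. They had a lower mean in 14 of 22, where 33.4% of all genes did, and a median of -0.36, beside 0.41 for all genes. In limma 0 passed, and 6 had an unadjusted p under 0.05, all lower, where 6.62% of all genes did on that side. Hspb7 (-1.72), Cryab (-1.72, with no value in WT 2 and RORasg/sg 2), Hspa1l (-2.48), Hspa8 (-1.05), Hsp90ab1 (-1.15), Dnaja1 (-2.29), Hspb6 (-2.45) and Hsf2 (-0.96) had the smallest p. Their median deviation was -0.84 in RORasg/sg 3 and -1.24 in RORasg/sg 4, where the 10 ER genes had -1.09 and -2.72, so both families were lowest in the same hearts. No test of the difference between these families was made.

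The pattern of Hspa5 over the 9 hearts was shared by genes of other kinds. By the root mean square difference of centred log2 levels over the 9 arrays, the 5 nearest of 27685 genes with a value on all arrays were Btg1 (0.199), Paip1 (0.203), Stx8 (0.204), the accession NAP000079-001 (0.219) and Fbxw4 (0.230). All 5 read low in RORasg/sg 3 and 4 and near the WT level in RORasg/sg 1. The nearest member was Calr at rank 338 (0.544), followed by Atf4 at rank 1230 (0.758), Dnajb9 at rank 1733 and Hsp90b1 at rank 2059. Herpud1, Pdia4, Atf6 and Xbp1 ranked between 3090 and 3784, and Ddit3 ranked 9788.

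Markers of cell types moved between the same hearts. The summed level of the 8 cardiomyocyte markers (linear, in units of the 75th percentile) was 545 to 671 in WT and 392 to 781 in RORasg/sg hearts, with 399 and 392 in RORasg/sg 3 and 4, and 7 of the 8 had a lower mean in RORasg/sg (median difference -0.77). Such a sum is carried by its brightest probes. The sum of 6 B and plasma cell markers, cells rich in ER chaperones, was 1.30 to 2.38 in WT and 0.790 to 5.89 in RORasg/sg hearts. It was lowest in RORasg/sg 1 and highest in RORasg/sg 4, as were the T cell and adipocyte sums. Of the 6 markers, 5 had a higher mean (median difference 0.69), where 33.4% of all genes had a lower mean (median difference of all genes 0.41). At an unadjusted limma p under 0.05, 0 were higher and 1 was lower, where 6.62% of all genes were lower. In the brighter arrays 0 of the 6 were higher. For 6 fibroblast markers the ranges were 49.6 to 86.8 and 63.4 to 141, and for 6 macrophage markers 6.50 to 13.5 and 8.47 to 18.9. For 6 endothelial markers they were 19.3 to 36.6 and 24.9 to 63.8, although 4 of these 6 had a lower mean in RORasg/sg (median difference -1.39). Of the 6 endothelial markers, 3 were lower and 1 higher at an unadjusted limma p under 0.05, where 6.62% of all genes were lower. Smooth muscle and pericyte (6 markers, 59.1 to 129 and 60.0 to 103), atrial (4 markers, 7.24 to 23.5 and 4.97 to 9.86), red cell (3 of 4 markers measured, 6.23 to 11.2 and 1.23 to 22.7), adipocyte (4 markers, 0.526 to 1.32 and 0.455 to 1.70), T cell (3 markers, 0.233 to 0.302 and 0.205 to 0.581) and skeletal muscle (4 markers, 9.80 to 14.8 and 7.49 to 17.2) sums overlapped as well. In the atrial list, 3 of the 4 markers had a higher mean in RORasg/sg (median difference 0.75), although the range of the sum was lower. No marker list was at 0, and the part of cell make-up in the differences of the 10 genes was not tested.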

How the data were processed

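Total RNA of each heart (70 ng) was amplified with NuGEN Ovation Pico WTA, and 5 ug of product was labelled with Cy3, per the labels' protocols. Scanning used Feature Extraction 12.0.0.7 on array design 014868 with an mm9 grid, per the file headers; the submitters' processing notes give version 12 of the same Agilent software. The deposited intensity had its background subtracted and no scaling across arrays, and the authors' value table was identical to it. Outlier spots were left out (758 over 9 arrays), none was saturated, and spots of a probe were averaged. From this, log2 signal was taken relative to the 75th percentile of its own array. A probe entered if it was well above background on 4 or more arrays (36402 of 41174), and the one with the highest mean stands for a gene. Accessions were named through RefSeq (GRCm38.p6), which matched 28223 probes. RORasg/sg and WT were compared genome-wide with limma 3.58.1 (eBayes with trend, Benjamini-Hochberg, threshold 0.05) in R 4.3.3, and exact permutation tests used scipy 1.17.1. The fit was tested on simulated data, drawn independently with the WT SD of each gene in both groups. That test does not cover the larger SD among RORasg/sg hearts (median over all genes 1.07, against 0.511 in WT). The labels number the hearts as replicates without stating that each is a separate mouse, so p-values measure only the spread between these samples, whose number limits the precision. Alternatives were other scalings, normexp (offset 50, on median signals), filters, probe rules, blocks, weights, subsets and leaving out each array. The members, lists and tests were chosen with earlier results of these data known. Named were all members, the genes of each list with the smallest p (3 per role, 8 for heat shock) and the 5 genes nearest to Hspa5; 1 gene that this rule names is not reported here. Protein sequences were not used here.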

Additional observations from a re-analysis of the deposited data

Results flagged for a closer look

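A single heart stood apart from the rest of its group, by the gap to its nearest neighbour over the whole range (Dixon's 95% critical value), in 7 of the 30 groups of values tested for the 15 probes. Chance flags about 1 in 20 such groups, but the 15 probes were read on the same arrays, so the groups are not independent. WT 4 stood apart in 6 of the 7. It was the highest WT heart for Atf4 (2.07, next 1.33) and for the main probe of Atf6 (4.08, next 3.29). It was the lowest WT heart for the second probe of Calr (-0.863, next 1.56), for Dnajb9 on its main probe (0.713, next 2.61) and on another (-2.0, next 0.52), and for Pdia4 (-0.0429, next 1.52). RORasg/sg 4 stood apart once, as the lowest heart of its group for the main probe of Atf6 (-0.369, next 3.21).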

How the results depend on the processing

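The number of genes called over the whole array was 1 and changed to 2 with quantile normalization, 3 with no scaling, 9 with the replicate block, 14373 with array quality weights and 1190 in the brighter arrays, and to 0 with normexp, with a filter for probes above background on all 9 arrays, with the mean of a gene's probes, with slide as a block, and within slide 1, slide 2 or the dimmer arrays. Leaving out each array gave 0 to 10389, the latter without RORasg/sg 1. Members called were 0, against 7 with array weights, 1 in the brighter arrays and 0 to 4 on leaving out each array. Members with an unadjusted p under 0.05 in limma were 2, beside 3210 of all 27773 genes. They were 4 with no scaling (3433 genes) or normexp (3710), and 5 with the mean of probes (3413) or within slide 2 (5535). With array weights 8 members stood beside 16537 genes, and within slide 1 0 beside 404. With brightness as a covariate 1 member, Ddit3, stood beside 1187. Leaving out each array gave 2 to 7 members, the 7 without RORasg/sg 1, beside 14076 genes. The members' median of -1.01 became -1.58 with no scaling, -1.35 with the mean of probes, -1.49 with array weights, -0.066 within slide 1, -1.71 within slide 2, -0.011 in the brighter arrays and -0.42 with brightness as a covariate, and ran from -1.47 without RORasg/sg 1 to -0.51 without RORasg/sg 4. The sign turned for Atf6 within slide 1 (0.27) and without RORasg/sg 4 (0.043, in a range from -1.33), for Xbp1 within slide 1 (0.33) and in the brighter arrays (0.89), for Calr in the same sets (0.26 and 0.69), for Dnajb9 in the dimmer arrays (0.79) and for Pdia4 in the brighter arrays (0.22); the cause was not tested. Of 249 values of single members under the alternatives, 229 kept their direction and side of the threshold, 12 newly passed it and 8 turned. Xbp1 has no value when a probe must be well above background on all 9 arrays.

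Whether the replicate numbers pair the hearts was not settled. Same-numbered hearts had correlations of 0.046, -0.0069, -0.33 and 0.39 between their deviations from the group means. Other pairs ran from -0.58 (WT 4 with RORasg/sg 1) to 0.54 (WT 3 with RORasg/sg 1). The replicate block called 9 genes and 0 members. The scaling set the median of all genes, at 0.41 with the 75th percentile, 0.35 with the median, 0.30 with quantiles and -0.17 with none. Dim signal limits Xbp1 in RORasg/sg 3 and 4 and Ddit3 in all hearts.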
